A study of Mus musculus with 6 samples.

Results

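Chemokines are small secreted or membrane-bound proteins that attract white blood cells and guide migrating cells. This account covers 10 chemokine genes, namely Ccl2, Ccl7, Ccl5, Cxcl1, Cxcl2, Cxcl5, Cxcl12, Cxcl14, Cxcl16 and Cx3cl1. They were taken by name from the gene symbols of the array, by a rule that uses no measured value but was written with earlier results of these data known. All 10 of 10 were found among the 19932 genes measured. They had 12 probe sets in all, and where a gene had several, the one brightest on average across the 6 arrays stands for it.

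Whole-transcript arrays measured total RNA of chondrocytes, the cells that make cartilage, from untreated wild-type animals of ICR, an outbred mouse stock. One group was nasal septum chondrocytes of embryonic day 17.5 (n = 3) and the other was rib chondrocytes of postnatal day 1 (n = 3). The source names of the samples give chondrocytes for rib and only the nasal septum for nasal. The series sets such arrays beside ChIP-seq of the transcription factor Sox9 and of histone modifications, not used here. Site and age differ together, so what belongs to nasal cartilage and what to the embryonic age cannot be told apart. The labels call the samples of a group biological replicates and do not say how many animals went into each. In bulk RNA, fewer cells of a type and less RNA per cell cannot be told apart either.

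The family is named after the spacing of its cysteines. CC chemokines such as Ccl2, Ccl7 and Ccl5 mainly attract monocytes and T cells, while the CXC chemokines Cxcl1, Cxcl2 and Cxcl5 attract neutrophils through the receptor Cxcr2. Most of these genes are induced by interleukin-1, tumour necrosis factor or interferons, largely through the transcription factor NF-kB. Cxcl12 and Cxcl14 are made by many resting tissues, and Cxcl16 and Cx3cl1 are made as membrane proteins that proteases can release. Cultured chondrocytes are known to secrete several of them when exposed to inflammatory cytokines.

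The array values were intensities on a linear scale, and each array had been scaled to the same trimmed mean of 500.0. Array medians over all genes ran from 219 to 265 in nasal and from 215 to 239 in rib. Differences are log2 intensity in nasal minus log2 intensity in rib, with limma's standard error (SE), and a gene passed at an adjusted p under 0.05. Over all genes, 28.5% passed, 13.8% as higher in nasal and 14.7% as higher in rib. All genes together had a median difference of 0.11, on the nasal side. The 9343 genes dim in both groups had 0.22, and the others -0.062. Chondrocyte markers were bright in both groups, with Col2a1, the type II collagen chain, at 13462 in nasal and 16032 in rib. Of 12 chondrocyte markers, 0 passed as higher in nasal and 2 as higher in rib (limma; 2 and 4 at an unadjusted p under 0.05).

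Cxcl1 and Cxcl2 lie 10777 bases apart on chromosome 5 and are close relatives, and their promoters are shown because they hold the same NF-kB site while the measured differences were unlike. The sequences are RefSeq windows of build GRCm38.p6, from 250 bases before to 50 bases after the gene start, on the plus strand at chr5:90890995-90891294 for Cxcl1 and chr5:90903649-90903948 for Cxcl2. Capitals mark the NF-kB match.
Cxcl1: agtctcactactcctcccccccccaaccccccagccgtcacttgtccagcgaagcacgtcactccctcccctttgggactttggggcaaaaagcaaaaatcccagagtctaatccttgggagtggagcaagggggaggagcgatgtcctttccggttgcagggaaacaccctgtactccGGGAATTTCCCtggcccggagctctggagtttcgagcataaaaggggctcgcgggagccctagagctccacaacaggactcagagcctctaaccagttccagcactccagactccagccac
Cxcl2: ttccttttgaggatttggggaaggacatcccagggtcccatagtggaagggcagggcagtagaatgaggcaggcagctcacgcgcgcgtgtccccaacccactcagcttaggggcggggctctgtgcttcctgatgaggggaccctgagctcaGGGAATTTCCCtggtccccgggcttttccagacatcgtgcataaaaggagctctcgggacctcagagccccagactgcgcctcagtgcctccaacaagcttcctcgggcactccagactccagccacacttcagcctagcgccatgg

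The letters searched were GGGAANTTCC on both strands, where N is any base, and the pattern was chosen after the windows had been seen. Its matches on the plus and minus strand overlap by all but 1 base at each site, giving the run in capitals. It begins 71 bases before the start in Cxcl1 and 97 bases before it in Cxcl2. The stretch gggaatttccctgg, 14 bases long, is the same in both. Of 32851 promoter windows of this length, 0.341% hold a match. Windows were found for 5 of the 10 genes, and those of Cxcl12, Cxcl14 and Cx3cl1 held no match. A match of letters describes a sequence and does not show that a factor binds there.

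Of the 10 chemokines, 6 were higher in nasal, 1 was higher in rib and 3 did not pass. Over all genes the shares were 13.8% and 14.7%. The 3 nasal values lay wholly apart from the 3 rib values for 7 of the 10 genes, where the same held for 45.7% of all genes. A called difference of at least 2-fold was found for 3 of them, against 3.75% of all genes. The median difference of the 10 genes was 0.67, which lay 0.55 above the median of all genes.

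**Figure D1:**
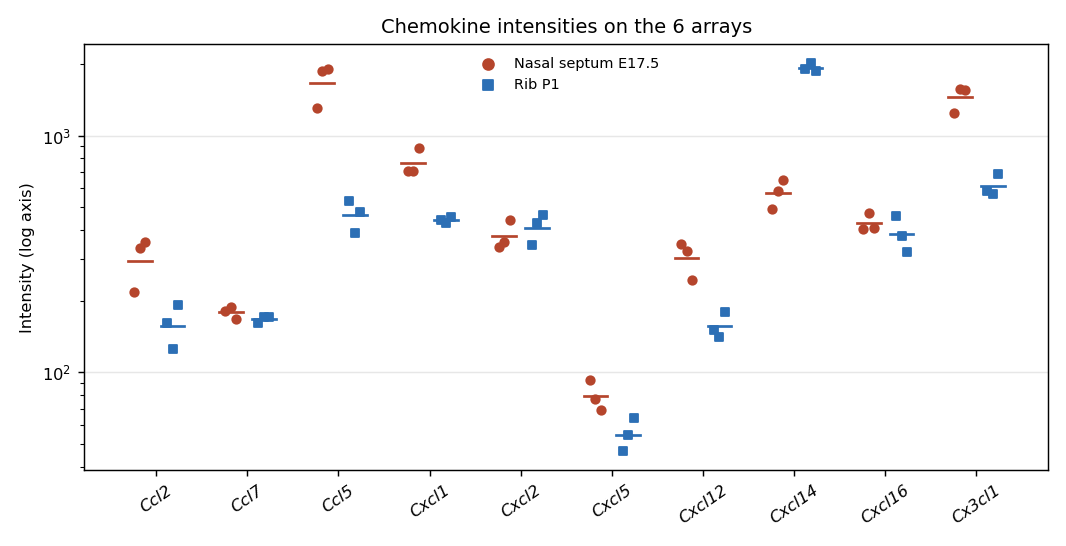
Intensity of each chemokine (vertical axis, log scale) on the 3 nasal septum arrays (red circles) and the 3 rib arrays (blue squares), with lines at the geometric means. Ccl5 and Cx3cl1 stand higher on every nasal array than on any rib array, Cxcl14 stands higher on every rib array, and the groups overlap for Ccl7, Cxcl2 and Cxcl16.

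Among the CC chemokines, Ccl5 (NM_013653), an attractant of T cells and monocytes, was higher in nasal. Its intensities were 1305, 1881 and 1901 in nasal, against 531, 387 and 475 in rib. The lowest nasal value was more than double the highest rib value. The difference was 1.86 (SE 0.19, limma adjusted p = 0.000733), or 3.63-fold with a 95% interval of 2.68 to 4.92.

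Ccl2 (NM_011333) encodes the main attractant of monocytes. It stood at 218, 335 and 354 in nasal, against 161, 125 and 192 in rib. The groups did not overlap, but nasal replicate 1 lay close to rib replicate 3. The difference was 0.91 (SE 0.23, limma adjusted p = 0.0245). That call was lost without nasal replicate 2 or 3 and without rib replicate 1 or 2, with differences from 0.75 to 1.13 over the 6 fits without 1 array and adjusted p up to 0.0829, and after quantile normalization (adjusted p = 0.0549). The rib values and nasal replicate 1 lay under 231, the middle intensity over all genes, where background may make up much of the signal. With 50 added to each intensity the difference was 0.74.

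Ccl7 (NM_013654), which shares the receptor Ccr2 with Ccl2, begins 8259 bases beyond the end of Ccl2 on chromosome 11. Its intensities were 182, 189 and 169 in nasal, against 161, 172 and 171 in rib. The groups overlapped, and the difference was 0.10 (SE 0.09, limma adjusted p = 0.435) with a 95% interval of -0.11 to 0.31. Both group means were below 231, the middle intensity over all genes, so background may make up much of the signal. The sign turned after quantile normalization (-0.055) and cyclic loess (-0.039). The nasal minus rib difference of Ccl2 was 0.81 larger than that of Ccl7, with no overlap between the groups in the ratio of both genes within an array. The two-sided exact permutation p of 0.1 (n = 3 each) is the smallest this design allows.

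Of the neutrophil attractants, Cxcl1 (NM_008176) was higher in nasal. It had 707, 707 and 889 in nasal, against 440.4, 427 and 452 in rib. The rib arrays were close together and all below the nasal ones. The difference was 0.80 (SE 0.12, limma adjusted p = 0.00299), or 1.74-fold with a 95% interval of 1.44 to 2.10.

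Cxcl2 (NM_009140), whose promoter carries the same NF-kB letters as that of Cxcl1, had 338, 357 and 441 in nasal, against 346, 425 and 461 in rib. The groups overlapped over most of their range. The difference was -0.12 (SE 0.15, limma adjusted p = 0.576), and its 95% interval of -0.47 to 0.24 lies wholly under the lower bound of 0.52 for Cxcl1. The differences of Cxcl1 and Cxcl2 were 0.91 apart, with no overlap between groups in the ratio within an array and an exact permutation p of 0.1 (two-sided, n = 3 each). These are 2 pairs of neighbours, chosen after their values were seen, so neither p is independent evidence. Whether probes of either gene also bind the transcript of the other was not tested.

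Cxcl5 (NM_009141), the third of the neutrophil attractants, was dim in both groups. It had 92.9, 77.4 and 69.5 in nasal, against 46.6, 54.3 and 64.3 in rib. The groups did not overlap, but nasal replicate 3 and rib replicate 3 were near each other. The difference of 0.54 (SE 0.16, limma adjusted p = 0.0416) lay just past the threshold. The call did not hold under quantile normalization (0.28) or cyclic loess (0.28), with trend and robust (adjusted p = 0.0686), with the replicate block (adjusted p = 0.104) or without nasal replicate 1 or 2 or rib replicate 1 or 2.

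**Figure D2:**
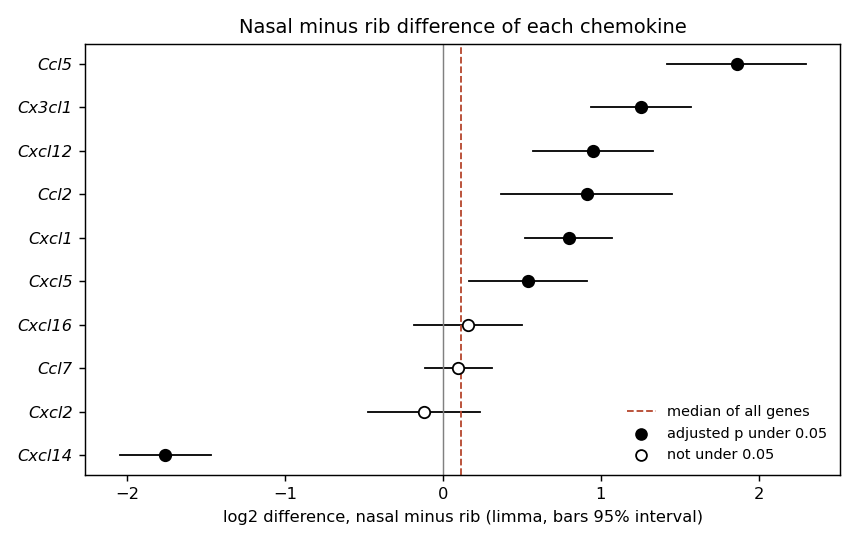
Log2 difference, nasal minus rib, of each chemokine (horizontal axis) with its 95% interval from limma, filled where the adjusted p was under 0.05. The dashed line is the median of all genes at 0.11, and the intervals of Ccl7, Cxcl2 and Cxcl16 span it while those of the other 7 do not.

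The 2 chemokines of resting tissues went opposite ways. Cxcl12 (the probe set NM_013655), which holds stem cells and guides migrating cells through Cxcr4, had 349, 324 and 245 in nasal, against 151, 141 and 179 in rib. All nasal values were above all rib values. The difference was 0.95 (SE 0.16, limma adjusted p = 0.00528), or 1.94-fold with a 95% interval of 1.49 to 2.52. The rib values lay under the middle intensity of 231, where background may make up much of the signal, and with 50 added to each intensity the difference was 0.77.

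Cxcl12 was the only gene of the 10 with more than 1 probe set, and its 3 probe sets stand for transcript variants of the gene. Fitted among all 28451 probe sets, they gave 0.90 (SE 0.13, limma adjusted p = 0.00339) for NM_001012477, 0.95 (SE 0.16) for NM_013655 and 1.33 (SE 0.13) for NM_021704. The last of these had 322, 262 and 342 in nasal, against 110.3, 122 and 135 in rib. In each probe set the groups did not overlap. The array order was not the same in all 3, since nasal replicate 3 was the lowest nasal array for NM_013655 and the highest for NM_021704. How far the probe sets share probes is not given in the sources used here.

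**Figure D3:**
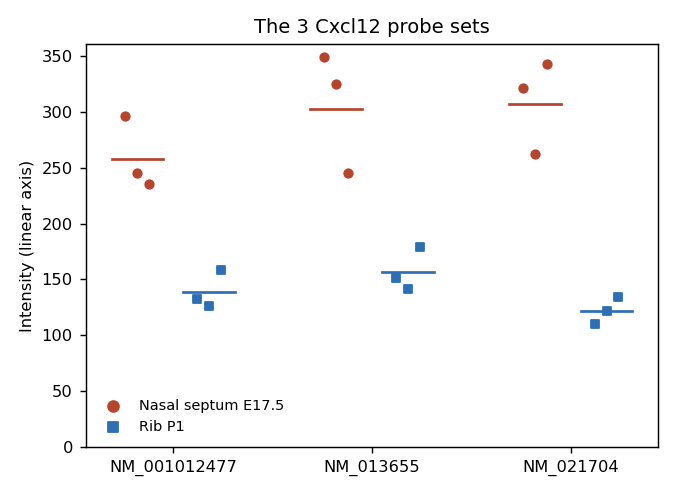
Intensity of the 3 Cxcl12 probe sets (vertical axis, linear from 0) on the nasal septum arrays (red circles) and the rib arrays (blue squares), with lines at the geometric means. Nasal means are 258, 303 and 307 and rib means 138, 156 and 122 from left to right, with no overlap in any probe set.

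Cxcl14 (NM_019568), a chemokine known from skin and other epithelia, was the only gene of the 10 called higher in rib. It had 490.3, 586 and 651 in nasal, against 1909.5, 2017 and 1872 in rib. The 3 rib arrays were tightly grouped, far above the highest nasal array. The difference was -1.76 (SE 0.12, limma adjusted p = 0.000249), or 3.38-fold higher in rib. It passed under all 15 alternatives, with differences from -1.85 to -1.65.

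The membrane-bound chemokines also differed from each other. Cx3cl1 (NM_009142), or fractalkine, is a ligand on a mucin-like stalk that binds Cx3cr1. It had 1248, 1567 and 1564 in nasal, against 581, 564 and 690.3 in rib. Every nasal array was well above every rib array. The difference was 1.25 (SE 0.13, limma adjusted p = 0.000886), or 2.38-fold with a 95% interval of 1.92 to 2.96.

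Cxcl16 (NM_023158), which binds Cxcr6 and also takes up oxidised lipoproteins, had 404, 470.0 and 407 in nasal, against 456, 378 and 324 in rib. The groups overlapped, with rib replicate 1 among the nasal values. The difference was 0.16 (SE 0.14, limma adjusted p = 0.440) with a 95% interval of -0.18 to 0.50.

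Arrays of a group were not alike in these genes. Nasal replicate 1 was the lowest nasal array for 7 of the 10 chemokines, among them Ccl2, Ccl5 and Cx3cl1, and the highest for Cxcl5 and Cxcl12. It was also the array with the highest median, and without it the median difference of all genes was 0.025. Leaving it out gave 2.04 for Ccl5, 1.13 for Ccl2 and 1.36 for Cx3cl1, each the highest of the 6 fits without 1 array. For Cxcl12 (0.85) and Cxcl14 (-1.65) it gave the smallest difference in size of the 6 fits. Cxcl5 fell to 0.43 and lost its call.

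**Figure D4:**
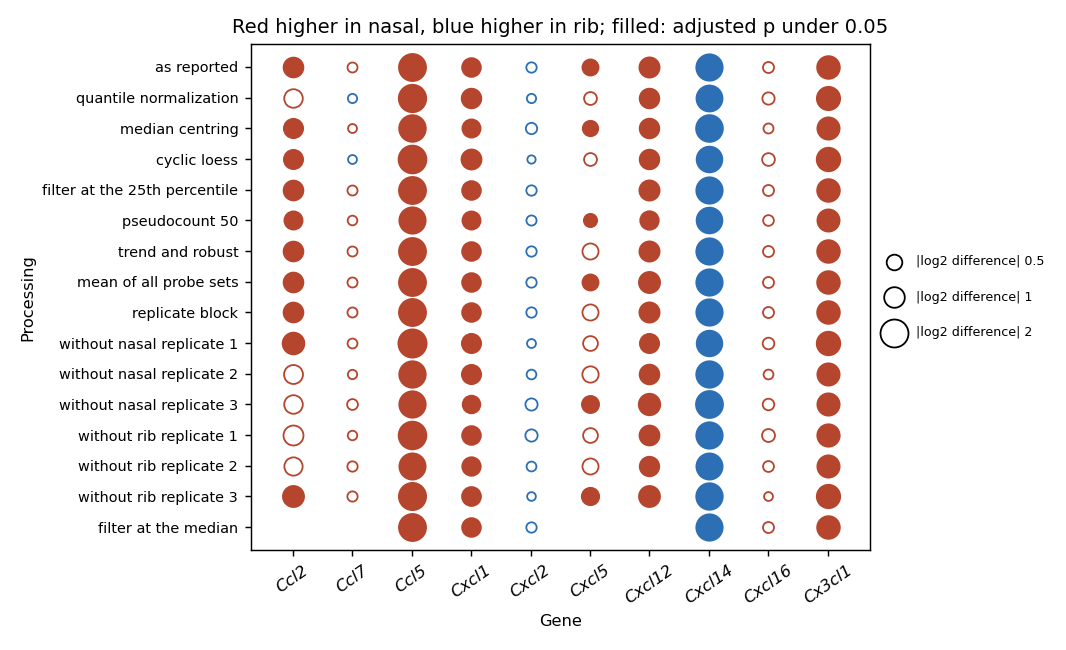
Log2 difference of each chemokine (columns) under each processing (rows). Circle area grows with the size of the difference, red is higher in nasal, blue is higher in rib, and filled circles had an adjusted p under 0.05. Ccl5, Cxcl1, Cxcl14 and Cx3cl1 are filled in every row, Cxcl12 in every row that tested it, and Ccl2 and Cxcl5 only in some. A missing circle means that the gene was below the filter on dim genes.

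Predicted, clone and small RNA symbols were left out of the search for genes of like profile. Genes with the most similar profile over the 6 arrays were found by the Euclidean distance between log2 values centred on each gene's mean. For Ccl5 these were Tfpi2, an inhibitor of serine proteases (distance 0.35), Cp, which encodes ceruloplasmin (0.37), and Cd274, which encodes the ligand PD-L1 (0.38). For Cxcl14 they were Fabp7, a fatty acid binding protein (0.19), and the growth factor genes Bmp6 (0.23) and Bmp4 (0.24). Bmp6 had mean intensities of 1596 in nasal and 5043 in rib. For Cx3cl1 they were Heyl, a Notch-responsive transcription factor (0.15), Cfap69 (0.16) and Cd40, a receptor of the tumour necrosis factor family (0.17). With 6 arrays in 2 groups, such likeness mostly follows the difference between the groups.

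The chemokines outside the 10 mostly did not pass, beside shares of 13.8% higher in nasal and 14.7% higher in rib over all genes. Of 24 measured, 6 were higher in nasal and 0 in rib (limma; 7 and 1 at an unadjusted p under 0.05), and their median difference was 0.25. Cxcl10 and Cxcl9, both induced by interferon, led them. Cxcl10 had 1797, 3707 and 4049 in nasal, against 511, 379 and 379 in rib, with nasal replicate 1 again the lowest of its group. Cxcl9 had 319, 382 and 448 in nasal, against 107, 93.3 and 87.8 in rib (1.99, SE 0.15). Ppbp, a platelet chemokine (1.31, SE 0.18), and Ccl22 (0.74, SE 0.19) followed, the last of which lost its call without nasal replicate 2. In 21 of the 24 genes both groups lay under the median gene intensity, and after quantile normalization and after cyclic loess 3 of them were called higher in rib. The median difference of the 24 genes was 0.0043 after quantile normalization and 0.013 after cyclic loess. Outside the 10, windows were looked up for Cxcl10, Cxcl9 and Icam1 only. A match to the NF-kB letters was recorded for Cxcl10 alone, GGGAAATTCC, at 159 bases before the start. Whether Cxcl9 and Icam1 had a window was not recorded.

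Most receptors were dim, and their calls stand beside 13.8% of all genes higher in nasal and 14.7% higher in rib. Of 22 measured, 2 were higher in nasal and 0 in rib (limma; 6 and 0 at an unadjusted p under 0.05), with a median difference of 0.32, and 21 of the 22 lay under the median gene intensity in both groups. After quantile normalization the median difference of the receptors was 0.092, and after cyclic loess it was also 0.092. Ackr3, an atypical receptor that takes up Cxcl12 from the tissue, had 411, 389 and 333 in nasal, against 201, 195 and 220.3 in rib (0.87, SE 0.11, limma adjusted p = 0.00178). Ccr1, a receptor of Ccl5 and Ccl7, passed at 0.48 (SE 0.11) but lost its call after quantile normalization, cyclic loess and without rib replicate 2, among others.

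Cxcr4, Cx3cr1 and Ccr2, which bind the differing ligands Cxcl12, Cx3cl1 and Ccl2, did not pass. These 3 receptors were named for that role after their values were seen. Ackr3, which also binds Cxcl12, passed, as given above. Cxcr4, the signalling receptor of Cxcl12, had mean intensities of 170 in nasal and 155 in rib (0.13, SE 0.19). Cx3cr1 had 226 in nasal and 185 in rib (0.29, SE 0.19), and Ccr2 had 50.6 in nasal and 31.2 in rib (0.69, SE 0.25). A receptor that did not pass at this brightness is not shown to be equal.

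Proteases that shed or trim chemokines and syndecans that anchor them were also measured. Of 15, 6 were higher in nasal and 2 in rib, beside 13.8% and 14.7% of all genes, with a median of 0.17. The metalloproteinases Mmp3 (2.30, SE 0.15) and Mmp9 (2.03, SE 0.14) had the largest differences, ahead of Cpd, a carboxypeptidase (0.57, SE 0.10), and Mmp2, which is known to cleave Cxcl12 (0.46, SE 0.09). Mmp9 had 813, 838 and 875 in nasal, against 179, 193 and 251 in rib. Adam17, a protease that sheds Cx3cl1 and Cxcl16, was higher in rib, with 622, 737 and 712 in nasal, against 949.5, 1017 and 934 in rib (-0.49, SE 0.10, limma adjusted p = 0.0118). Adam10, named as the other main sheddase of both, did not pass (-0.21, SE 0.12), and the rib call of Adam17 was lost without rib replicate 2. Ctsk, the cathepsin of osteoclasts, was the other gene called higher in rib (-0.42, SE 0.13), and it lost that call under 8 of the 15 alternatives.

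**Figure D5:**
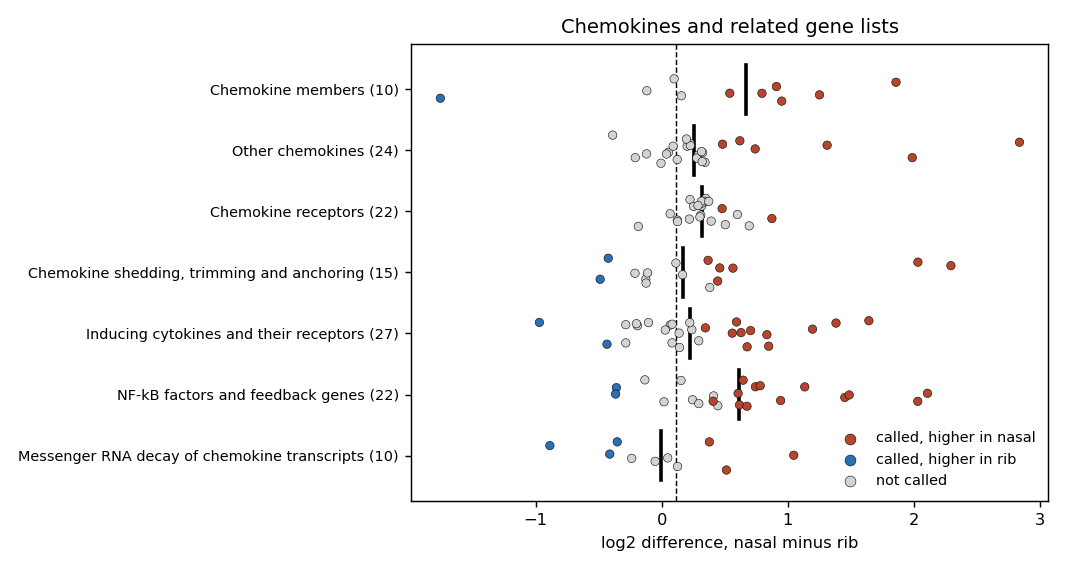
Log2 difference, nasal minus rib, of each gene (points) in the 10 chemokines and 6 related lists (rows, with the number of genes), where red and blue mark calls and thick bars the list medians. The dashed line is the median of all genes at 0.11, and the medians of the chemokines (0.67) and of the NF-kB list (0.61) lie farthest from it.

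Among inducing cytokines and their receptors, 11 of 27 were higher in nasal and 2 in rib, beside 13.8% and 14.7% of all genes. Their median was 0.22. The cytokine Il6 had 73.3, 83.8 and 129.5 in nasal, against 23.7, 28.8 and 38.0 in rib, all dim (1.64, SE 0.25). Il1r1, the interleukin-1 receptor that signals to NF-kB, had 2631, 3281 and 2499.5 in nasal, against 1151, 1059.9 and 996 in rib (1.38, SE 0.13, limma adjusted p = 0.000562). Lif (1.20, SE 0.17) and Tlr2, a sensor of bacterial lipoproteins (0.85, SE 0.21), were also higher in nasal. Tlr4, the sensor of bacterial endotoxin, was higher in rib, with mean intensities of 79.0 in nasal and 155 in rib (-0.97, SE 0.11), and so was the tumour necrosis factor receptor Tnfrsf1b (-0.43, SE 0.12). The inducers Il1a (0.24, SE 0.16), Il1b (0.07, SE 0.16), Tnf (0.03, SE 0.13) and Ifng (0.29, SE 0.14), named for that role, did not pass. The interferon gene Ifnb1, named for the same role, was called higher in nasal (0.71, SE 0.12). All of these inducers lay under the median gene intensity of 231 in both groups. Tlr2 and Tnfrsf1b each lost the call with the replicate block and without nasal replicate 2 or 3 or rib replicate 2 or 3.

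Of 22 NF-kB factors and feedback genes, 13 passed towards nasal and 2 towards rib, beside 13.8% and 14.7% of all genes. Their median of 0.61 lay 0.50 above that of all genes. Icam1 and Vcam1, adhesion molecules that catch white blood cells, had differences of 2.11 (SE 0.19) and 2.03 (SE 0.22). Vcam1 stood at 545, 792 and 926 in nasal, against 147, 185 and 215 in rib. Birc3, a ubiquitin ligase of the pathway (1.49, SE 0.19), and Nfkbie, an inhibitor that NF-kB itself induces (1.45, SE 0.14), came next. Traf2 (-0.37, SE 0.10) and Ikbkg (-0.36, SE 0.09), which carry the signal upstream of NF-kB, were higher in rib, and both lost the call with the replicate block and in fits without nasal replicate 2 or rib replicate 2 or 3.

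Regulators of the decay of chemokine messenger RNAs were divided. Of 10, 3 were higher in nasal and 3 in rib, beside 13.8% and 14.7% of all genes, with a median of -0.0022. Zfp36, which encodes the decay factor tristetraprolin (1.05, SE 0.16), Mapkapk2, the kinase that restrains it (0.51, SE 0.10), and the RNase gene Zc3h12a (0.38, SE 0.09) were higher in nasal. Khsrp, another decay factor, had 648, 795 and 784 in nasal, against 1442, 1351 and 1315 in rib (-0.89, SE 0.11), and Dusp1 (-0.41, SE 0.10) and Zfp36l1 (-0.35, SE 0.09) were also higher in rib. Zc3h12a, Dusp1 and Zfp36l1 lost their calls with the replicate block and without rib replicate 1 or 2, among others.

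Markers of other cells that make chemokines were measured beside these genes. Of 15 macrophage and osteoclast markers, 0 passed (limma; 5 and 0 at an unadjusted p under 0.05), and their summed intensity ran from 3033 to 3562 in nasal and from 2594 to 2881 in rib. Of 14 lymphocyte markers, 0 passed (limma; 1 and 0 unadjusted), with sums of 1347 to 2062 in nasal and 1299 to 1536 in rib. Of 12 granulocyte markers, 1 was higher in nasal and 0 in rib (limma; 2 and 0 unadjusted), beside 13.8% and 14.7% of all genes. Granulocyte sums were 1212 to 1891 in nasal and 1088 to 1307 in rib. The marker called was Ltf, with 435, 131 and 176 in nasal, against 89.5, 82.0 and 69.1 in rib. Of 12 endothelial markers, 4 were higher in nasal, 0 were higher in rib (limma; 6 and 0 unadjusted) and 8 did not pass, beside 13.8% of all genes higher in nasal. Their sums were 2967 to 3653 in nasal and 1978 to 2363 in rib, and Eng, the brightest of them, had mean intensities of 1205 in nasal and 645 in rib. Median differences were 0.28 for macrophage and osteoclast, 0.20 for lymphocyte, 0.15 for granulocyte and 0.43 for endothelial markers, beside 0.11 for all genes.

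The other marker lists had 0 or 1 call each towards nasal, beside 13.8% of all genes higher in nasal and 14.7% higher in rib. Of 12 epithelial markers 1 was higher in nasal and 1 in rib (limma; 3 and 1 unadjusted), and their median of 0.16 was near that of all genes. Of 12 fibroblast and perichondrium markers 1 was higher in nasal and 4 in rib (limma; 2 and 4 unadjusted), of 12 skeletal muscle markers 0 and 2 (limma; 1 and 2 unadjusted), and of 8 erythroid markers 0 and 1 (limma; 1 and 1 unadjusted). Medians of these 3 lists were -0.33, 0.0025 and 0.057 in the same order. The epithelial marker called higher in nasal was Cdh1 (0.53) and the one called higher in rib was Epcam (-0.45). No marker is at 0 on these arrays. The part of endothelial, epithelial or blood cells in the chemokine differences was not tested.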

How the data were processed

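The 6 arrays come as 1 table that the authors deposited, and every column entered the fit. It holds linear intensities, as the authors deposited them. RMA is named per the submitters' processing notes, without version or settings. The arrays share a trimmed mean but not a median, and which steps of RMA the values went through is not known. Trizol RNA was treated with DNase and labelled with a whole-transcript kit, per the labels' protocols. Neither detection calls nor the genome build are given in the sources used here, so no gene was set as above or below background.

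Of 28451 probe sets, 24935 matched 1 symbol by RefSeq accession in a GRCm38.p6 table used for names. The brightest probe set was kept for each of 19932 genes, and 0 of the 10 chemokines had values identical to another gene. Log2 values, with no pseudocount, were fitted with limma 3.58.1 in R 4.3.3 (lmFit and eBayes, default prior, no covariate) and adjusted by Benjamini-Hochberg over all genes. The pipeline was tested on simulated data. Exact permutation tests used SciPy 1.17.1.

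The 10 genes and all lists were chosen with earlier results of these data known. Of 234 list entries, 229 were measured. From each related list, up to 4 called genes per direction are named, and others only for a stated role. The number of arrays limits the precision.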

Additional observations from a re-analysis of the deposited data

How the results depend on the processing

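Alternatives were quantile normalization, median centring, cyclic loess, filters on dim genes at the 25th percentile and the median, a pseudocount of 50, trend and robust, the mean of all probe sets, the replicate block and each fit without 1 array. Ccl5, Cxcl1, Cxcl14 and Cx3cl1 kept direction and call under all 15 alternatives and Cxcl12 under the 14 that tested it. Cxcl2 and Cxcl16 passed under none of their 15. Ccl7 turned sign after quantile normalization (-0.055) and cyclic loess (-0.039). Ccl2 was not called after quantile normalization (0.78) and ran from 0.75 to 1.13 without 1 array. Cxcl5 was not called after quantile normalization (0.28), cyclic loess (0.28), trend and robust (0.54) or the replicate block (0.54), and ran from 0.43 to 0.66 without 1 array. The filter at the median left 6 of the 10 chemokines, with 3 higher in nasal, since Ccl2, Cxcl5 and Cxcl12 were themselves removed as dim. It left 2 other chemokines, 1 receptor and 14 inducing cytokines and receptors, of which 2, 1 and 7 were higher in nasal. Without 1 array, 4 to 6 chemokines were higher in nasal.

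Quantile normalization brought the median difference of all genes to -0.0015 and that of the 10 chemokines to 0.53, and cyclic loess to 0.0074 and 0.56. Both gave 3 other chemokines higher in rib and 1 shedding gene higher in rib; quantile normalization gave 1 receptor higher in nasal, cyclic loess 1 NF-kB gene higher in rib, median centring 4 receptors higher in nasal and 1 other chemokine higher in rib. The filter at the 25th percentile and the mean of all probe sets gave 1 other chemokine higher in rib, and trend and robust 4 inducing genes higher in rib. For these shifts the cause was not tested.

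Same-numbered nasal and rib arrays deviated together with correlations of -0.018, 0.22 and -0.28. Differently numbered arrays ran from -0.37 to 0.38. Deviations from the mean of 3 arrays are tied to each other, so these values cannot settle whether the numbers pair the arrays. The replicate block left 3 of the 9 list genes higher in rib (1 shedding, 1 inducing, 0 NF-kB and 1 decay gene). Of the 50 related genes called, 32 passed under every alternative that tested them. Over the fits without 1 array, genes higher in nasal ran from 1639 to 2596 (1639 without rib replicate 2) and genes higher in rib from 1827 to 3168 (1827 without rib replicate 2, 1953 without nasal replicate 2). List genes higher in rib ran from 2 to 11, with 0 to 1 for other chemokines and for receptors, 0 to 3 for shedding genes, 1 to 2 for inducing genes, 0 to 2 for the NF-kB list and 1 to 3 for decay genes. Receptors higher in nasal ran from 1 to 3. Dim genes are limited by their signal over background, which was not measured.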
